A study of Rattus norvegicus with 15 samples.

Results

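Among 32545 rat genes counted in 5 fibroblast lines, 47 met a rule for low levels in 1 line, R149. This line expresses the K149R mutant of MYC, an arginine in place of a lysine. For each of the 47 its mean was the lowest, or shared at 0 with 1 other line. The 47 genes were chosen on measured levels. A CPM is a gene's share of its library's summed counts, in counts per 1000000. It is not per length, so levels of different genes are not ordered here. A gene belonged if its mean was at least 1 CPM in the empty-vector line (EV) and at least 0.5 CPM in the wild-type MYC line (WT). Its R149 mean also had to be at most 0.5 times the mean of each other line, that is EV, WT, R158 (K158R) and R323 (K323R). The 2 minimums left 12063 genes, of which the 47 are the members described here. The files list genes by Ensembl identifier and 0 identifiers could be paired with a symbol, so members are given by identifier and their functions and sequences were not analysed here.

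MYC is a transcription factor that pairs with MAX and binds E-box sequences in promoters and enhancers. It is known for raising RNAs of growth and biosynthesis, and many other RNAs are lower in cells with high MYC, in part through its partner MIZ1 and in part indirectly. MYC is acetylated on several lysines by enzymes such as p300 and GCN5. Arginine resembles unacetylated lysine in charge but does not take the acetyl group.

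Rat1A is an established rat fibroblast line, although the labels call the cells normal primary fibroblasts. Cells grew attached in serum-containing medium and differed by their stable construct: EV an empty vector, WT mouse MYC, and R149, R158 and R323 the mouse MYC mutants. As background, Rat1A cells keep their own rat Myc gene, which all 5 lines then share. Each construct is 1 stable line with 3 biological replicates, so a construct and its line cannot be told apart. Fibroblast markers, markers of other cell types and the level of Myc could not be checked without gene names. In such bulk RNA, fewer cells with an RNA and less of it per cell cannot be told apart either.

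The 15 libraries held between 13303631 and 108933235 counts in genes. R149 replicate 1 stood apart: of the 12063 genes, 101 had 0 counts there, against 0 to 6 in each of the other 14 libraries, although its 36989944 counts were more than in 10 of the others. Its log2 CPM correlated with R149 replicates 2 and 3 at 0.977 across genes, while replicates 2 and 3 correlated at 0.997. In each other line replicates 2 and 3 also correlated best. Replicate 1 correlated with them at 0.989 and 0.985 in EV (0.996 between them) and 0.983 and 0.98 in WT (0.993). The values were 0.981 and 0.986 in R158 (0.987) and 0.984 and 0.983 in R323 (0.997). R149 replicate 1 differed by its zeros, so main counts are also given without it.

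Most members were low-level RNAs. The EV mean was below 5 CPM for 34 of the 47, against 1718 of the 12063 genes (14.2%). The rule took 2.23% of genes with an EV mean of 1 to 2 CPM and 1.83% of those from 2 to 5 CPM. It took 0.337% of genes from 5 to 10 CPM and 0.0983%, 9 of 9157, at 10 CPM or above. The members' median level was 2.83 CPM in EV, 1.75 in WT, 1.44 in R158, 1.37 in R323 and 0.388 in R149. Counts behind the R149 values were small in replicate 1, with a median of 4 counts per member, and larger in replicates 2 and 3, with 23 and 58. Summed over the members, EV libraries held 293 ± 21.4 CPM, WT 185 ± 38, R158 168 ± 23, R323 144 ± 21.5 and R149 48 ± 15.7 CPM (SD, n = 3). The R149 sum was 29.8 CPM in replicate 1, 58.3 in replicate 2 and 55.8 in replicate 3, and the lowest sum of any other library was 119 CPM.

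**Figure D1:**
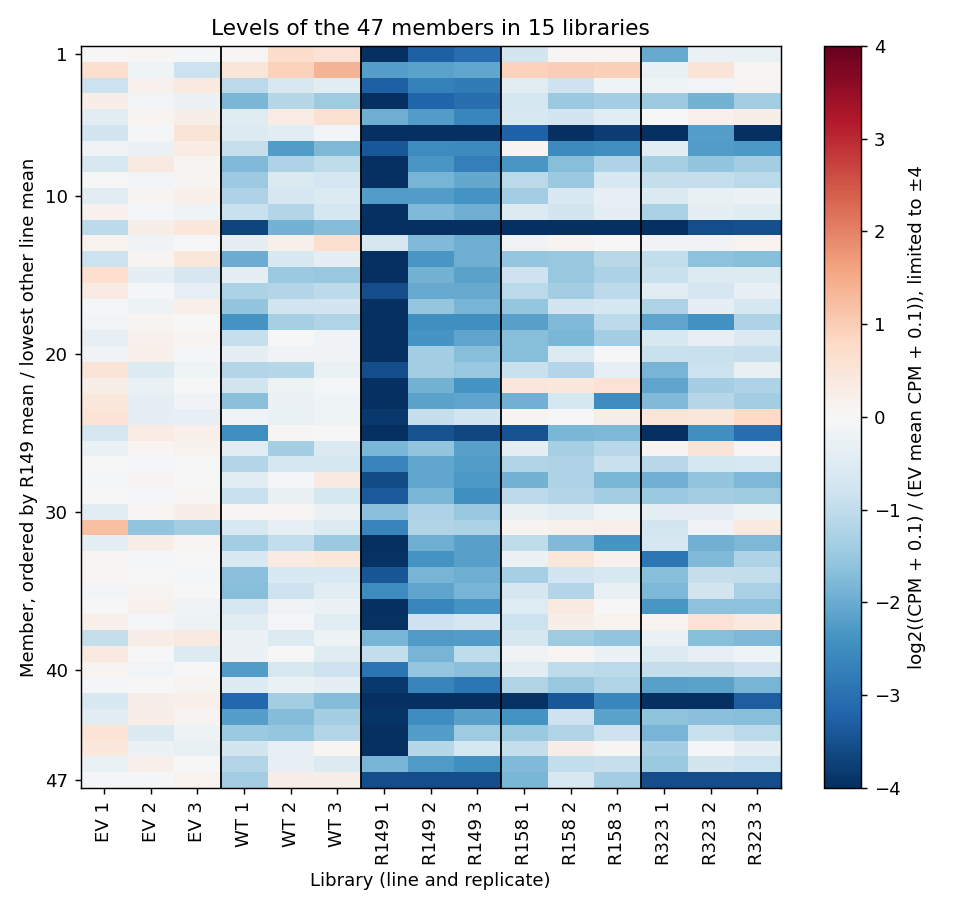
Each row is 1 of the 47 members and each column 1 library; colour gives log2 of CPM + 0.1 relative to the member's EV mean + 0.1. The rows run from the lowest to the highest ratio of the R149 mean to the lowest other line mean, with the member listed at 0 in both R149 and R323 last. The R149 columns are the deepest blue, replicate 1 most of all, and the WT, R158 and R323 columns are mostly below EV as well.

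The ratio of the R149 mean to the lowest other line mean had a median of 0.412 over the 46 members for which it is defined, and ran from 0.102 to 0.495. The 3 members nearest the limit stood at 0.491, 0.495 and 0.495, and the 3 genes just outside it at 0.501, 0.506 and 0.507. The lowest other line was R323 for 21 members (the tie at 0 included), R158 for 14, WT for 11 and EV for 1. The member without a ratio, ENSRNOG00000006978, had 0 counts in all R149 and all R323 libraries. It held 0.99, 1.01 and 1.19 CPM in EV, 0.341, 1.31 and 1.26 in WT, and 0.226, 0.647 and 0.356 in R158. It meets the rule only because 0 is at most 0.5 times 0. Against a floor of 3 counts over the 3 R149 libraries together, it was at least 65.9-fold higher in EV, 57.1-fold in WT and 29.7-fold in R158. Floors and counting intervals cover counting error only.

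Replicate 1 decided membership for most members, 29 of the 47. Taken singly, R149 replicate 1 was at most 0.5 times the lowest other line mean for 43 of 47 members, replicate 2 for 17 and replicate 3 for 21. Over all 12063 genes these shares were 4.72%, 0.265% and 0.315%. All 3 libraries met the limit for 9 members, 2 libraries for 16 and 1 library for 22. The 4 members above 0.5 in replicate 1 stood there at ratios from 0.585 to 0.624. With replicates 2 and 3 alone as the R149 mean, 18 members still met the rule and 29 did not, and all of those 29 met it in replicate 1. In these 2 replicates the ratio of the mean had a median of 0.567 and a highest value of 0.742, and the rule itself allows at most 0.75. That 46 of 47 members were below every other line there, against 20.2% of the 12063 genes, is therefore fixed by the choice and says nothing about replicate 1. All of these values are descriptions, since the same libraries chose the members.

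Many members had no counts at all in replicate 1. There 19 members had 0 counts (40.4%), against 0.837% of the 12063 genes, and 3 counts in that library equal 0.0811 CPM. Of the 34 members below 5 CPM in EV, 18 were at 0, against 5.47% of the 1718 genes at that level. Replicates 2 and 3 had 1 member at 0 each, the member that R323 also lacks. Replicate 1 was the lowest R149 library for 38 members, against 50.9% of all 12063 genes. Replicate 1 was also the lowest of 3 for 37 members in WT (48.5% of all genes), 32 in R323 (53.5%), 22 in R158 (39.8%) and 22 in EV (38.8%). The R149 zeros also entered the choice of members. The part of depth, level and library quality in these zeros was not tested.

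**Figure D2:**
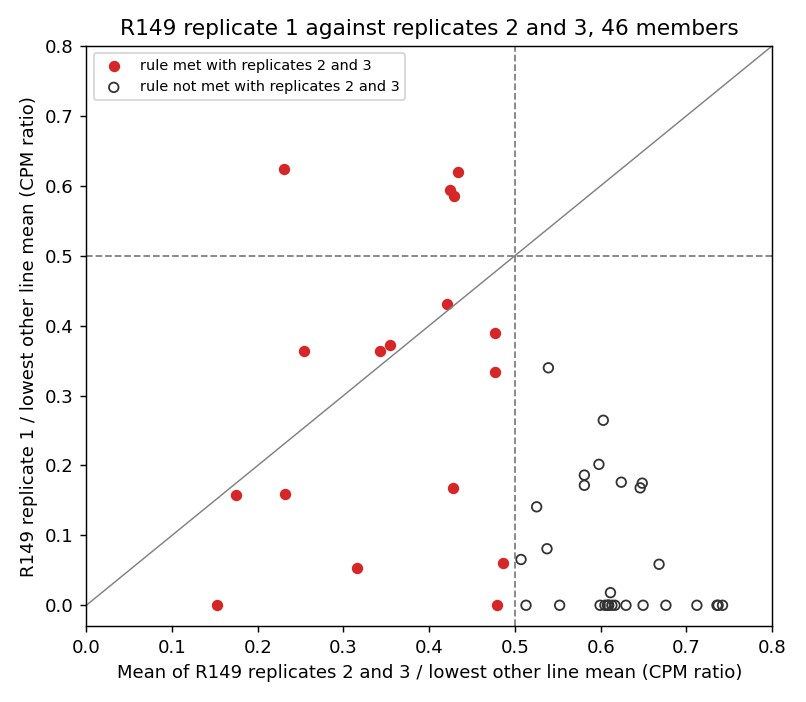
The ratio to the lowest other line mean is shown for R149 replicate 1 (vertical) against the mean of replicates 2 and 3 (horizontal), 1 point per member with a defined ratio; dashed lines mark 0.5 and the diagonal marks equality. Open circles, to the right of 0.5, are the 29 members that miss the rule with replicates 2 and 3, and they lie at or below 0.34 in replicate 1.

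Within replicate numbers the picture was similar. R149 replicate 1 was at most 0.5 times every other library numbered 1 for 41 members, replicate 2 for 13 and replicate 3 for 25, against 2.94%, 0.232% and 0.398% of all 12063 genes. R149 was below every other library of the same number in all 3 numbers for 40 of 47 members, where 4.7% of the 12063 genes had that order. Each of the 3 R149 libraries was below all 12 other libraries for 27 members, where 1.52% of the 12063 genes had that order. Replicates 2 and 3 were below all 12 others for 27 members as well (2.78% of genes). Of the 18 members that met the rule with replicates 2 and 3, 15 had all 3 R149 libraries below all 12 others. These 18 passed a further limit on low R149 levels, so the 1.52% of all genes is not a like comparison. The same libraries chose the members, so these orders follow in large part from the choice and are descriptions.

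Choosing genes without a given R149 library and reading them in it left only that library's own level outside the choice. The ratio itself is not outside it, since the other 4 line means also chose the genes. The shares of all genes are not matched in level to the genes chosen, so these values are descriptions. Without replicate 1 the rule chose 32 genes, 18 of them members, and 13 of the 32 (40.6%) were at most 0.5 times the lowest other mean in replicate 1, against 4.71% of all genes that passed the minimums. Replicate 1 was below the lowest other mean for 22 of the 32 (39.9% of all genes) and not below it for 10. Without replicate 2 the rule chose 112 genes, and 13 (11.6%) met the limit in replicate 2, against 0.257% of all genes. Without replicate 3 it chose 87, and 18 (20.7%) met it there, against 0.307%. Below the lowest other mean stood 86 of the 112 and 77 of the 87, where all genes gave 18.4% and 24.8%.

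The lowest ratio, 0.102, was that of ENSRNOG00000059326. It held 0, 0.484 and 0.588 CPM in R149, and 5.58, 5.69 and 5.4 CPM in EV. WT libraries held 5.69, 9.03 and 8.42 CPM, R158 libraries 3.31, 5.73 and 5.93, and R323 libraries 1.31, 4.57 and 4.64. All R149 values lay below all others, and the nearest other value was R323 replicate 1. WT libraries lay above all EV libraries, WT replicate 1 only just, with a log2 difference of 0.49 ± 0.47 (SE) and an edgeR adjusted p of 0.475. With replicates 2 and 3 alone the adjusted p was 0.00279.

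Next lowest in ratio (0.169) was ENSRNOG00000048433, whose R149 libraries were even, at 0.216, 0.23 and 0.248 CPM. Its EV libraries held 2.19, 1.21 and 0.702 CPM, its WT libraries 1.97, 2.68 and 3.64, its R158 libraries 2.71, 2.83 and 2.73, and its R323 libraries 1.09, 2 and 1.43. R149 was below every other library, and EV, not a MYC line, was the next lowest line. In the fit over all 15 libraries this member was the single one called higher than EV in any other MYC line. The edgeR log2 change was 1.04 ± 0.34 in WT (adjusted p = 0.0355) and 1.08 ± 0.35 in R158 (adjusted p = 0.0309). The WT call was lost without EV replicate 2 or 3 or WT replicate 2 or 3 (adjusted p of 0.128, 0.147, 0.0686 and 0.132). The R158 call was lost without EV replicate 2 or 3 (0.108 and 0.133) or without R158 replicate 1, 2 or 3 (0.0668, 0.0811 and 0.0539).

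The pair of members with the highest mean CPM over the other 12 libraries differed in pattern. ENSRNOG00000029408 held 35.2, 39.9 and 32.3 CPM in EV, 22.5, 32.4 and 30.7 in WT and 25.1, 45.5 and 35.3 in R158. It held 7.12, 11.3 and 11.5 CPM in R323 and 1.76, 5.76 and 6.7 in R149. R323 and R149 were thus both low, without overlap with EV, WT or R158, and R149 was lower than R323 in all libraries. With replicates 2 and 3 its R149 mean exceeded 0.5 times that of R323. ENSRNOG00000009198 instead held 5.3, 5.25 and 4.71 CPM in R149, with replicate 1 no lower than the others. The other lines ranged from 9.62 to 29.3 CPM, the highest in EV (18.9, 27.4 and 29.3) and the next in R323 (16.8, 20.4 and 21.2). Its WT libraries held 10.5, 15.7 and 17.4 CPM and its R158 libraries 9.62, 16.4 and 19.9. Against EV it was lower in WT by a log2 difference of -0.78 ± 0.22 (edgeR adjusted p = 0.0164) and in R158 by -0.66 ± 0.22 (0.038), and in R323 the value was -0.37 ± 0.22 (0.233). The WT call was lost without EV replicate 2 or 3 or WT replicate 1 (adjusted p of 0.0631, 0.0785 and 0.0745). The R158 call was lost without EV replicate 2 or 3 or R158 replicate 1 or 2 (0.113, 0.144, 0.135 and 0.0648).

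**Figure D3:**
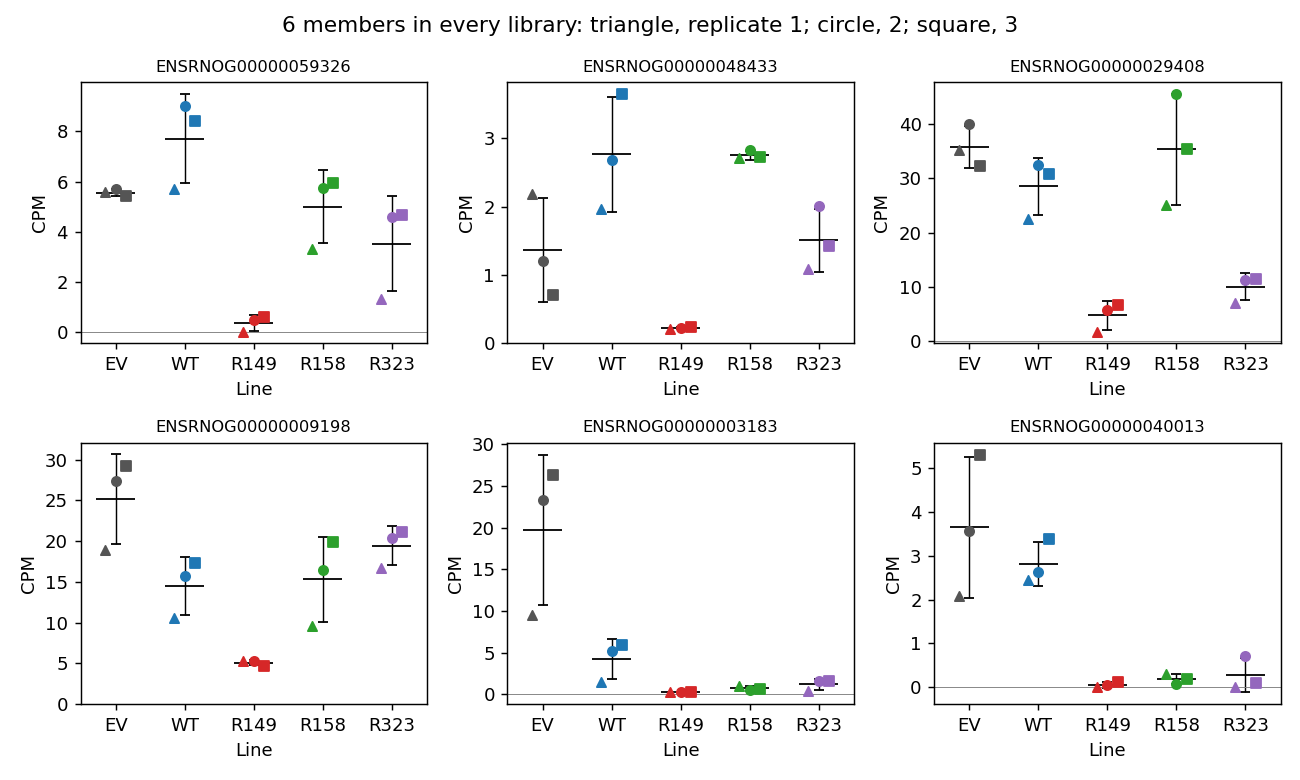
CPM of 6 members is shown in every library by line; triangles, circles and squares are replicates 1, 2 and 3, bars the mean and whiskers ± SD over 3 libraries. R149 is lowest in each panel, with R323 also low for ENSRNOG00000029408 and both R158 and R323 low for ENSRNOG00000003183 and ENSRNOG00000040013.

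Comparisons between the other 4 lines do not use R149, although the rule keeps members from being as low there as in R149. Its higher minimum in EV than in WT favours genes that are higher in EV. The rule sets a minimum in WT and none in R158 or R323, so members could fall further in R158 and R323. The contrast of WT with R158 and R323 is therefore in part set by the choice. The question was whether members were also lower in other MYC lines. Against EV, edgeR called 8 of 47 members lower and 1 higher in WT, 15 lower and 1 higher in R158, and 19 lower and 0 higher in R323. All 47 passed the low-count filter. Over all 13676 genes tested, 14.1% were lower in WT, 14.1% in R158 and 15.7% in R323, and 12.6%, 14.4% and 14.1% were higher. In this fit over all 15 libraries, the share of members called lower was near the background in WT (17%). It was above the background in R158 (31.9%) and R323 (40.4%). The WT share depended on the fit. Without the 3 R149 libraries 16 of 47 members were called lower in WT, where 28.2% of all genes were called in either direction. By mean level, members were lower in WT more often than the 17% shows. The WT mean was below the EV mean for 42 members, against 51.5% of the 12063 genes. It was at most 0.5 times the EV mean for 13 members (27.7%), against 5.37%. The R158 and R323 means were that low for 26 members each (55.3%), against 5.84% and 6.95%. These shares of all genes are not matched in level: 34 of the 47 members were below 5 CPM in EV, against 14.2% of the 12063 genes. Median log2 changes of the members were -0.64, -1.03 and -1.03, where all genes had medians of 0.01, 0.01 and 0.00. For R323, 0 members were higher at an unadjusted p below 0.05 and DESeq2 called 0 higher, while the fit without EV replicate 1 called 1 higher and replicates 2 and 3 alone called 3.

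Members had a larger standard error than all genes tested, a median of 0.46 against 0.17 (log2) for WT against EV, and the R149 libraries enter that shared spread. A fit without the 3 R149 libraries called 17, 25 and 26 members for WT, R158 and R323 against EV, of which 16, 24 and 26 were lower, beside 28.2%, 29.9% and 31.6% of all genes in either direction. With the R149 libraries these background shares were 26.8%, 28.5% and 29.8%. Without R149 replicate 1 the counts were 19, 26 and 26 (30.9%, 32.4% and 33.8% of all genes), against 9, 16 and 19 with it. For WT the count was 5 without EV replicate 2. For R158 the count was 6 without EV replicate 2, 7 without EV replicate 3, 8 without R158 replicate 2 and 10 without R158 replicate 3. These last counts are given without the share of all genes called, which also moved. For WT it was 23.1% without EV replicate 1. The 3 comparisons share the EV libraries, so their lists are not independent of each other.

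**Figure D4:**
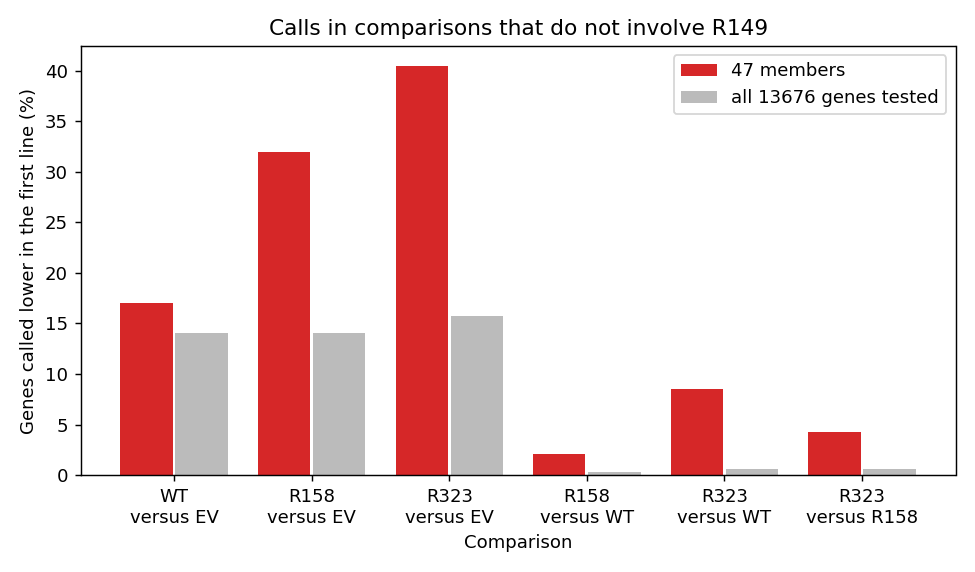
Bars give the percent of the 47 members (red) and of all 13676 genes (grey) called lower in the first-named line by edgeR at an adjusted p below 0.05, for the 6 comparisons without R149. Members reach 31.9% and 40.4% for R158 and R323 against EV, and 17% for WT, where all genes stand at 14.1%. The calls are from the fit over all 15 libraries, and more members were called lower in WT without the R149 libraries.

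The other 35 members, not named here, had mean levels from 0.11 to 5.62 CPM in R149 and from 1 to 27.3 CPM in EV.

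By their calls against EV, members fell into several kinds. In WT, R158 and R323 alike, 5 members were lower than EV (8.8% of all genes were). A further 7 were lower in R158 and R323 and not called in WT (1.67% of all genes), 6 were lower in R323 alone (2.62%), and 1 in R158 alone (2.36%). The remaining 3 of the 22 members lower in at least 1 line (20.8% of all genes) were lower in WT and 1 mutant, ENSRNOG00000009198 among them. Another 24 members were called in none of the 3 (57.9% of all genes). By mean level alone, EV was the highest line for 37 of 47 members, against 38.8% of the 12063 genes, which are not matched in level.

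The 5 members lower in all 3 lines were ENSRNOG00000003183, ENSRNOG00000000940, ENSRNOG00000000894, ENSRNOG00000011700 and ENSRNOG00000016581, of which the last 3 were named after their values were seen. A wide range was that of ENSRNOG00000003183, at 9.54, 23.4 and 26.4 CPM in EV, 1.44, 5.22 and 5.9 in WT, 1.05, 0.477 and 0.652 in R158 and 0.438, 1.58 and 1.63 in R323. R149 held 0.27, 0.276 and 0.239 CPM, even across replicates and below all others. Its edgeR log2 change against EV was -2.26 ± 0.46 in WT (adjusted p = 0.00234), -4.80 ± 0.57 in R158 (6.14e-05) and -3.98 ± 0.52 in R323 (6.45e-05). ENSRNOG00000011700 held 23.1, 22.2 and 23.4 CPM in EV, 10.1 to 14.1 in WT, 9.64 to 12.3 in R158, 10.7 to 14.8 in R323 and 3.54, 5.34 and 4.79 in R149. The 3 other MYC lines stood together between EV and R149, and the WT change was -0.83 ± 0.16 with an edgeR adjusted p of 0.00138.

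The remaining members of this kind had smaller counts. ENSRNOG00000000894 fell from 7.64 ± 1.45 CPM in EV to 2.76 ± 0.659 in WT (SD, n = 3; log2 change -1.45 ± 0.37, edgeR adjusted p = 0.00984), with 0.135, 0.737 and 0.863 CPM in R149. ENSRNOG00000016581 fell from 6.38 ± 1.56 to 1.86 ± 0.56 CPM (log2 change -1.78 ± 0.43, edgeR adjusted p = 0.00735, n = 3), and its R149 libraries at 0.324, 1.06 and 1.35 CPM overlapped R158 replicate 1 at 1.13 and WT replicate 1 at 1.31. ENSRNOG00000000940 fell from 3.8 ± 1.17 to 0.933 ± 0.532 CPM (log2 change -2.04 ± 0.53, edgeR adjusted p = 0.0107, n = 3). Without EV replicate 2 its adjusted p was 0.0502. In this last member R149, at 0, 0.115 and 0.101 CPM, overlapped R323, at 0.0547, 0.0896 and 0.296.

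In the fit without pairing by replicate number, few members were called different among WT, R158 and R323, at shares above those of all genes. Lost calls given below for single members also come from fits without this pairing. The edgeR test called 1 lower in R158 than in WT (2.13%) and 4 lower in R323 than in WT (8.51%). It called 2 lower in R323 than in R158 (4.26%). Of all genes, 0.314%, 0.563% and 0.578% were called lower. By mean level, R158 was at most 0.5 times WT for 8 members, against 0.962% of the 12063 genes. R323 was that low for 11 members against WT (1.28% of genes) and 5 against R158 (0.879%). The rule's minimum in WT bears on those with WT, and the shares of the 12063 genes are not matched in level. No member was called higher, beside 0.285%, 0.329% and 0.358% of all genes (0.6%, 0.892% and 0.936% in either direction). At an unadjusted p below 0.05, 0, 2 and 3 members were higher, and DESeq2 called 0 higher in each. With the replicate number as a block, which pairs these lines, 4, 9 and 4 members were lower and 0 higher, beside 1.78%, 2.36% and 3.44% of all genes called in either direction. Replicates 2 and 3 alone gave 11, 14 and 6 lower, and 0, 3 and 5 higher, beside 7.22%, 6.70% and 9.23% of all genes called.

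These small counts, from fits that did not pair libraries by replicate number, moved with single libraries. The share of all genes called in each fit is not given beside them. Whether members or the whole fit moved can therefore not be read from them. R158 against WT gave 4 without R149 replicate 1, 2 without EV replicate 1, WT replicate 1 or R323 replicate 1, and 0 without EV replicate 2 or 3, WT replicate 2 or 3 or any single R158 replicate. R323 against WT gave 8 without WT replicate 1, 7 without R149 replicate 1, and 2 without EV replicate 2 or 3, WT replicate 2 or 3, R149 replicate 2, R158 replicate 3 or R323 replicate 1 or 3. R323 against R158 gave 5 without R149 replicate 1, 1 without any single EV replicate, WT replicate 2 or 3, R158 replicate 3 or R323 replicate 1, and 0 without R158 replicate 2 or R323 replicate 2 or 3.

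The member lower in R158 than in WT was ENSRNOG00000040013, at 2.44, 2.62 and 3.38 CPM in WT and 0.301, 0.0682 and 0.178 in R158. R323 held 0, 0.717 and 0.0987 CPM, R149 0, 0.0461 and 0.129, and EV 2.08, 3.56 and 5.3. EV and WT were high and the 3 mutants were low and overlapped each other. The log2 difference from WT was -4.08 ± 0.82 in R158 (edgeR adjusted p = 0.0331, called in 14 of 21 alternatives) and -3.12 ± 0.70 in R323 (0.0484, called in 11 of 21). The R158 call was lost without EV replicate 2 or 3, WT replicate 2 or 3, or any single R158 replicate, with adjusted p up to 0.261. The R323 call was lost without EV replicate 2 or 3, WT replicate 2 or 3, R149 replicate 2, any single R158 replicate, or R323 replicate 1 or 3, with adjusted p up to 0.25.

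Lower in R323 than in WT were this member, ENSRNOG00000002767, ENSRNOG00000029408 and ENSRNOG00000006978. All but ENSRNOG00000029408 were named after their values were seen. ENSRNOG00000002767 stepped down from 12.4, 12.8 and 13.9 CPM in EV to 8.92, 10.8 and 10.2 in WT and 5.64, 4.46 and 5.63 in R158. It reached 2.79, 2.9 and 3.51 CPM in R323 and 0.811, 2.03 and 1.67 in R149, and neighbouring lines in this order did not overlap. Its R323 difference from WT was -1.71 ± 0.23 on the log2 scale (edgeR adjusted p = 0.000896, between 6.85e-12 and 0.0122 in 21 alternatives). For ENSRNOG00000029408 the R323 level was -1.83 ± 0.33 against EV (edgeR adjusted p = 0.000855), -1.52 ± 0.33 against WT (0.0384) and -1.87 ± 0.33 against R158 (0.0118). The call against WT was lost without EV replicate 2 or 3, WT replicate 2 or 3, R149 replicate 2, R158 replicate 3 or any single R323 replicate, with adjusted p up to 0.163. That against R158 was lost without R158 replicate 2 or R323 replicate 2 or 3, with adjusted p up to 0.0888. ENSRNOG00000006978, at 0 in R323, was at least 25.1-fold higher in EV and 21.7-fold in WT against 3 counts over the R323 libraries. Its edgeR adjusted p was 0.000522 for R323 against EV and 0.0079 against WT. Against R158 it was 0.0408, and the call was lost without any single EV replicate, WT replicate 2 or 3, R158 replicate 2 or 3, or any single R323 replicate, with adjusted p up to 0.196.

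The contrasts the rule used are given as description. R149 was called lower by edgeR for 43 members against EV, 22 against WT, 13 against R158 and 11 against R323, where 20.2%, 0.994%, 1% and 0.892% of all 13676 genes were called lower. Median log2 differences of the members were -2.48, -1.59, -1.41 and -1.27. The block gave 17 against R323, beside 2.21% of all genes called. Leaving out R323 replicate 2 or 3 gave 7 in each case, for which the share of all genes is not given.

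The same rule found 3 genes with R158 and 13 genes with R323 in the place of R149. The reverse rule, a mean at least 2 times that of every other line with the same minimums, found 0 genes for R149, 2 for R158 and 5 for R323. Without replicate 1 of the line in question the rule gave 32 genes for R149, 2 for R158 and 19 for R323. With replicates 2 and 3 of every line it gave 31, 6 and 19. The number for R149 was 112 without R149 replicate 2 and 87 without R149 replicate 3. For R158 it was 6 without R158 replicate 2 and 6 without R158 replicate 3. For R323 it was 21 without R323 replicate 2 and 17 without R323 replicate 3. Neither the difference between these numbers nor the part of replicate 1 or of fewer libraries in them was tested.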

How the data were processed

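Stranded mRNA libraries from 5 Rat1A lines with 3 replicates each were analysed, grouped by the sample titles. The deposited tables hold raw counts, whole numbers per Ensembl rat gene with no normalization; TopHat2 2.1.0 and build Rnor_6.0 are listed in the submitters' processing notes. Which tool counted reads, whether it used strand and with which gene models is not given in the sources used here, so overlapping genes, antisense genes and near-identical copies are uncertain. CPM in the rule and in all levels printed is the count per 1000000 of the column sum. Tests used edgeR 4.0.16 in R 4.3.3: filterByExpr, TMM scaling, 1 quasi-likelihood fit over all 15 libraries with the line as the only term, and Benjamini-Hochberg adjustment over all 13676 genes of each comparison, with calls at an adjusted p below 0.05. The procedure was tested on simulated counts made without pairing, without a library with many zeros and without a choice of genes by R149 level. That test therefore does not cover how the members were chosen. Each standard error printed is the absolute log2 change divided by the square root of its quasi-likelihood F statistic. The p-values measure the spread between cultures of 1 stable line.

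The members and lists were chosen with earlier results of these data known. The reference table (GRCr8) holds 0 Ensembl identifiers, so 29 gene and marker lists and the promoter motif search could not be applied. By rule, identifiers named without symbols are the 2 members lowest in ratio, the 2 highest in mean CPM and those with the largest WT changes; the others were chosen after their values were seen. Alternatives were DESeq2 1.42.0, RLE scaling, no low-count filter, a replicate block, replicates 2 and 3 alone, fits without R149, and each library left out. Replicate numbers come from the titles; deviations of same-numbered libraries correlated above 0.1 in every pair for the 6 comparisons among MYC lines (0.127 to 0.54) and not for those with EV. No replicate pair agreed within counting noise (chi-square per degree of freedom of 4.24 or more).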

Additional observations from a re-analysis of the deposited data

How the results depend on the processing

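Of 67 counts recomputed with another method or subset, 38 stayed within 1.5 times the value reported. The number of members was 40 with TMM scaling, 30 with group medians, 7 at the stricter ratio limit of 0.333, 13 with an EV minimum of 5 CPM, and 31 with replicates 2 and 3 alone; 32 to 112 when 1 library was left out. The ranges that follow are given without the share of all genes called, which also shifts between fits. Members called ranged, with 1 library left out, from 5 to 19 for WT, 6 to 26 for R158, 15 to 26 for R323 and 42 to 44 for R149 against EV. Against WT they ranged from 0 to 4 for R158, 2 to 8 for R323 and 15 to 24 for R149; they were 0 to 5 for R323 against R158, 12 to 16 for R149 against R158 and 7 to 15 for R149 against R323. With the replicate block, 16 members were called for WT against EV, 4 and 9 for R158 and R323 against WT, 4 for R323 against R158 and 17 for R149 against R323; the block moved no other count by over 1.5 times. DESeq2 called 3 and 9 for R158 and R323 against WT, 5 for R323 against R158, and 20 and 18 for R149 against R158 and R323. No low-count filter gave 2 for R158 against WT and 4 for R323 against R158. Replicates 2 and 3 alone gave 26, 33 and 32 for WT, R158 and R323 against EV, 11, 17 and 36 for R158, R323 and R149 against WT, 11 for R323 against R158, and 25 and 24 for R149 against R158 and R323. The fit without R149 libraries gave 17 and 25 for WT and R158 against EV, 3 for R158 against WT and 5 for R323 against R158. Causes of these shifts were not tested. No named difference changed sign in 462 recomputations, while a call was lost in 56 of them and gained in 2. The recomputations share most libraries and many of these differences were named for their size, so an unchanged sign says little. Median counts per member of 4, 23 and 58 in the R149 libraries limit what can be read from single low members. With TMM scaling, tried after seeing the data, 43, 18 and 20 members met the limit in R149 replicates 1, 2 and 3.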
